A study of Mus musculus with 85 samples.

Results

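Kupffer cells from A/J mice and C57BL/6J mice were compared after both strains had been fed the AMLN diet for 30 weeks. The comparison held 4 A/J and 4 C57BL/6J libraries, 8 of the 85 libraries of the series, and they were taken by their labels for strain, cell type and diet. The AMLN (Amylin liver NASH) diet is rich in fat, fructose and cholesterol and induces NASH, the inflamed and scarred form of fatty liver disease. Both strains are inbred, and by the study's methods all mice were male. Livers of both groups were perfused and digested with flavopiridol, a blocker of transcription. Kupffer cells were sorted as live single cells that were positive for CD45, negative for the endothelial protein CD146, high for F4/80 and intermediate for CD11b. The gate held no marker that tells resident Kupffer cells from macrophages that arose from monocytes. A/J mice had been bought, while the C57BL/6 mice of the NASH work had been kept in the laboratory, so strain and source of the mice cannot be told apart. The labels do not say whether each library came from a separate mouse, so p-values measure only the spread between these libraries.

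Values outside the diet came from 2 A/J and 2 C57BL/6J libraries of untreated Kupffer cells, whose labels give neither a diet nor an age. Their titles name them Control and do not say whether the mice belonged to the NASH work. The study set its AMLN-fed cells against 2 control-diet samples per strain, which may be these. By its methods, mice outside the NASH work had been bought, so in C57BL/6J the source of the mice may differ with the diet. Diet and source could then not be told apart. Kupffer cells of BALB/cJ mice on the same diet gave 3 libraries. Strain differences in untreated cells of other types came from 2 A/J and 2 C57BL/6J libraries of resting bone-marrow-derived macrophages (BMDMs), 4 and 4 of liver sinusoidal endothelial cells (LSECs), 4 and 3 of hepatic stellate cells and 2 and 3 of hepatocytes.

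Kupffer cells line the liver sinusoids, where they clear bacteria, dying cells, aged red cells and modified lipoproteins from portal blood. In fatty liver some resident Kupffer cells are lost and are replaced by macrophages that arise from monocytes. Macrophages that take up lipid in fat tissue and in fatty liver are known to turn on a set of genes around the lipid receptor TREM2, and such cells are called lipid-associated macrophages. A gene was tested when its mean was above 8 TPM, a level scaled by transcript length and library depth, in at least 1 strain. It was called when its edgeR adjusted p was under 0.05 and its log2 fold change lay beyond 1 in either direction. A gene with a mean above 8 TPM in 1 strain alone could only be called higher in that strain. Levels of a group are listed library by library, from library 1 on. All log2 fold changes are A/J over C57BL/6J, so a positive value means a higher level in A/J.

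On the diet 608 of 7792 tested genes were called, which is 7.8% of those tested. Of these, 385 genes (4.94%) were higher in A/J and 223 genes (2.86%) were lower. These shares stand beside the count of each gene list below. The median log2 fold change over all tested genes was 0.06. TPM values of the 4 A/J and 4 C57BL/6J libraries did not overlap for 312 of the genes called higher and 219 of the genes called lower, against 25.7% of all tested genes in either direction (13.5% higher and 12.2% lower). The difference exceeded 4-fold for 190 genes called higher and 82 called lower. In each of 8 fits that left out 1 library, 229 of the higher and 162 of the lower genes were called again. DESeq2 called 465 genes higher and 257 lower, 9.27% of those tested, among them 378 and 223 of the genes that edgeR called.

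**Figure D1:**
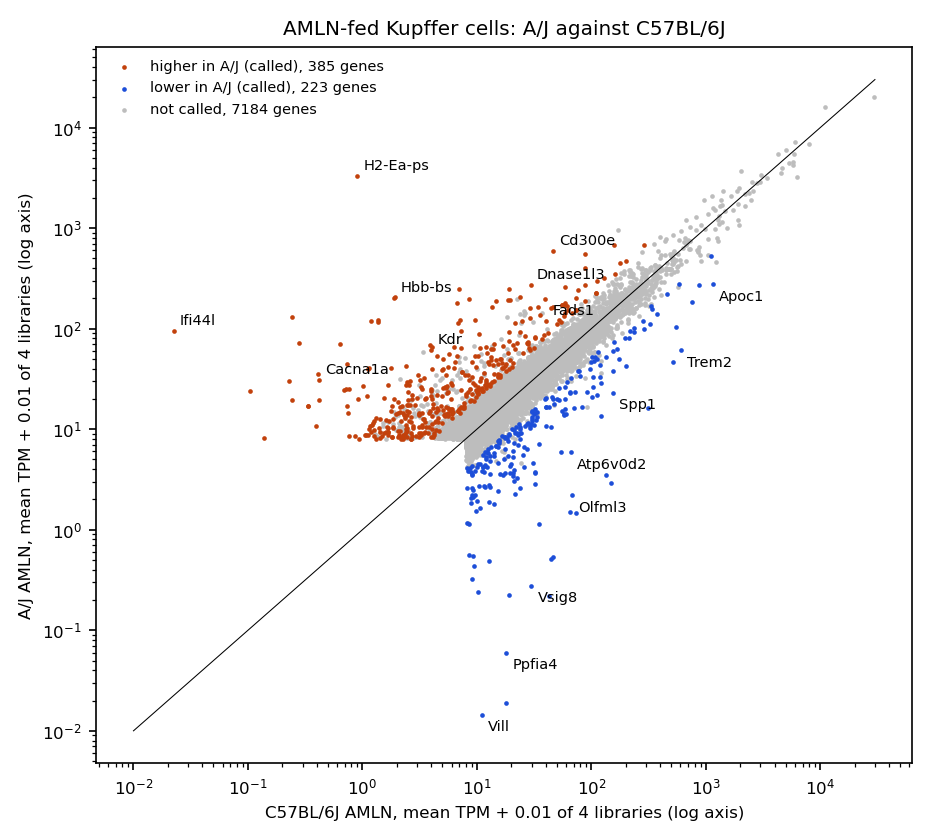
Mean TPM of each of 7792 tested genes in 4 A/J libraries (vertical, log axis) against 4 C57BL/6J libraries (horizontal, log axis) on the AMLN diet, with a small constant added to both; the line marks equal levels. The 385 genes called higher in A/J are red-brown, the 223 called lower are blue, and Trem2, Spp1, Atp6v0d2 and Apoc1 lie below the line while Cd300e, Dnase1l3, Hbb-bs and Kdr lie above it.

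The A/J libraries held 13.52 to 24.22 M (mega) counts and the C57BL/6J libraries 18.54 to 20.94 M. The A/J libraries were less alike than the C57BL/6J libraries, with pairwise Pearson r of log2(TPM + 1) across genes of 0.82 to 0.94 in A/J and 0.97 to 0.99 in C57BL/6J. Levels of genes of other liver cells also varied between A/J libraries and are given per library further on. Of the genes called higher in A/J, 199 (51.7%) had a mean level in LSECs, stellate cells or hepatocytes over 2 times that of untreated Kupffer cells, as had 76 (34.1%) of the genes called lower and 1710 (22%) of all tested genes. The limit also took in genes that were low in untreated Kupffer cells and higher on the diet, such as Spp1 and Atp6v0d2. Of 24 tested genes of lipid-associated macrophages 9 passed it. When all genes over that limit were left out of the test, 189 genes were called higher and 146 lower. The part of the left-out genes in the strain difference was not tested further. In bulk RNA, fewer cells of a type and less RNA per cell cannot be told apart, and this holds for every gene group below. Ribosomal protein genes have near-identical copies elsewhere in the genome, so the 14 called higher and 4 called lower of 70 tested are uncertain, and so are the 85 higher and 30 lower calls of gene models and multigene families.

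Genes of lipid-associated macrophages were lower in A/J Kupffer cells on the diet. Of 25 list members 24 were tested, 9 were called lower (Trem2, Gpnmb, Spp1, Cd9, Itgax, Mmp12, Atp6v0d2, Apoc2 and Ms4a7), none was called higher, and 22 had a negative log2 fold change. The median over the tested members was -1.52, against 0.06 over all genes. DESeq2 called 13 members lower and none higher, and at an unadjusted edgeR p under 0.05 the counts were 17 lower and 0 higher. Without A/J library 1 edgeR called 16 members lower, the most of the 8 fits without 1 library, and without A/J library 4 or C57BL/6J library 1 it called 6, the fewest. The summed level of the list was 11956, 9935, 9669 and 11104 TPM in A/J, against 19915, 18904, 17891 and 19208 TPM in C57BL/6J. No A/J library reached the lowest C57BL/6J library. The lysosomal protease genes Ctsd and Ctsb, which were not called, held a large part of these sums. In untreated Kupffer cells the same sum was 9416 and 9465 TPM in A/J and 9320.5 and 9816 TPM in C57BL/6J, a range that took in the lowest A/J library on the diet and no C57BL/6J library on the diet.

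Promoters of some called members are shown, with and without motifs of macrophage factors, because these genes were lower together. RefSeq (GRCm38.p6, the assembly of mm10) gives the 250 bases before the start site for 172 of the 223 genes called lower, 268 of the 385 called higher and 6168 of the 7792 tested. Each window was searched on both strands for TGACTCA, the site of AP-1, for GAGGAAGT, a site of the macrophage factor PU.1, and for 2 copies of GAAA with 2 bases between them, a core of the interferon-stimulated response element. Matches of different motifs were counted apart, also where their letters overlap. Of 17 list members with such a window 5 held a match, and of 8 called members 3 did (Spp1, Itgax and Mmp12). Trem2, Gpnmb, Cd9, Apoc2 and Ms4a7 held none, and Cd68 and Mmp13, which held matches, were not called. Capitals mark the matches, and the sequences run 5′ to 3′ along the gene. A match on the minus strand shows as its reverse complement, which is TGAGTCA in Itgax and ACTTCCTC in Mmp12.
Itgax, chr7:128129300-128129549, plus strand, with TGACTCA: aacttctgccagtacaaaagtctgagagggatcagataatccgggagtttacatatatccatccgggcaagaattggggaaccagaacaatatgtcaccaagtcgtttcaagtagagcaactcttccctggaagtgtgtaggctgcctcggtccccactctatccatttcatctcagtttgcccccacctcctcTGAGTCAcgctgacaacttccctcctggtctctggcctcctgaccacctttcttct
Spp1, chr5:104434861-104435110, plus strand, with GAGGAAGT and the response element on the minus strand: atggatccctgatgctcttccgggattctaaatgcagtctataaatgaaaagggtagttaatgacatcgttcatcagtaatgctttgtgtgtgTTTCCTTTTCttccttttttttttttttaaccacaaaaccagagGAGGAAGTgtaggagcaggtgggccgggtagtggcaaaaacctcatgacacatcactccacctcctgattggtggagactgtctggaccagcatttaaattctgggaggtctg
Mmp12, chr9:7344147-7344396, plus strand, with GAGGAAGT: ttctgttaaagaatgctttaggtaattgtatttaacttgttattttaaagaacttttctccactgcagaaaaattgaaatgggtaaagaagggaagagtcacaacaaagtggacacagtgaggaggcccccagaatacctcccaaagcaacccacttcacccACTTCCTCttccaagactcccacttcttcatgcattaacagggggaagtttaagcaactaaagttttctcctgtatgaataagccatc
Trem2, chr17:48346151-48346400, plus strand, with no match: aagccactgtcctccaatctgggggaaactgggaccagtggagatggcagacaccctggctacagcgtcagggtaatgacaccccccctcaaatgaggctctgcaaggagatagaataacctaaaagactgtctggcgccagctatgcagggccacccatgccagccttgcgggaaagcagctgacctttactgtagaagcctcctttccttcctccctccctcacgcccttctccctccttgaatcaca
Gpnmb, chr6:49036268-49036517, plus strand, with no match: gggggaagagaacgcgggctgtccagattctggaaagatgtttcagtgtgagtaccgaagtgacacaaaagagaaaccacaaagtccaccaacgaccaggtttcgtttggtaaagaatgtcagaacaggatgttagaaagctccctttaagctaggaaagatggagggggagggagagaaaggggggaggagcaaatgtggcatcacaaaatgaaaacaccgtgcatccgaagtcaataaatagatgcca
A second listed window of Spp1 held no match, and a second one of Mmp12 held the AP-1 site. TGACTCA was in 11% of promoters of genes called lower, 2.99% of those called higher and 4.18% of those tested, beside 5.16% of all 27025 genes with a promoter. GAGGAAGT was in 10.5% of promoters of genes called lower, 4.1% of those called higher and 3.37% of those tested. The response element core was in 7.56%, 5.22% and 3.71% of the same promoters. A match is a run of letters and was not measured as a bound site.

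Trem2 (chr17:48346401-48352276 on mm10), the lipid-sensing receptor at the centre of this gene set, had 121, 31.3, 32.4 and 58.2 TPM in A/J, against 674, 556, 504 and 686 TPM in C57BL/6J. Every A/J library lay below every C57BL/6J library, with a log2 fold change of -3.33 ± 0.47 (SE, n = 4 each, edgeR adjusted p = 0.00221). Its signalling partner Tyrobp was at 927, 1247, 1003 and 1112 TPM in A/J, against 1862, 2101, 1894 and 1921 TPM in C57BL/6J, also without overlap. That difference of -0.89 ± 0.13 (SE) passed the adjusted p (edgeR adjusted p = 0.00257) and stayed inside the fold limit. Gpnmb (chr6:49036518-49058182), a membrane glycoprotein of lipid-laden macrophages, had 118, 7.75, 22.5 and 37 TPM in A/J, against 568, 494, 427 and 565 TPM in C57BL/6J (log2 fold change -3.47 ± 0.75, SE, edgeR adjusted p = 0.0141). A/J library 1 had the highest level of the A/J group for Trem2 and Gpnmb, and it was still below the lowest C57BL/6J library for both.

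Spp1 (chr5:104435111-104441053), which encodes osteopontin, a secreted matrix protein linked to liver fibrosis, had 33.8, 6.11, 22.2 and 30.4 TPM in A/J, against 206, 92.2, 83.4 and 236 TPM in C57BL/6J. The groups did not overlap (log2 fold change -2.78 ± 0.56, SE, edgeR adjusted p = 0.0101), and its promoter is the one above with both PU.1 and response element letters. Atp6v0d2, a subunit of the proton pump of lysosomes, had 11.6, 0.634, 5.05 and 6.43 TPM in A/J, against 96.1, 45.1, 55.9 and 66.5 TPM in C57BL/6J. The log2 fold change was -3.50 ± 0.70 (SE, edgeR adjusted p = 0.0102), the most negative of the list. Ms4a7, a membrane protein of macrophages that arise from monocytes, had 21, 10.9, 23.3 and 31.6 TPM in A/J, against 131, 109, 111 and 96.7 TPM in C57BL/6J, again without overlap (log2 fold change -2.42 ± 0.27, SE, edgeR adjusted p = 7.31e-04). Apoc2, the cofactor of lipoprotein lipase, had 17.5, 26.6, 16.6 and 19 TPM in A/J, against 65.6, 60.2, 50.9 and 61 TPM in C57BL/6J (log2 fold change -1.60 ± 0.20, SE, edgeR adjusted p = 0.00123). All 6 of these genes (Trem2, Gpnmb, Spp1, Atp6v0d2, Ms4a7 and Apoc2) were called in each of the 8 fits that left out a library.

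For Cd9, Itgax and Mmp12 the call depended on single libraries. Cd9, a tetraspanin of lipid-associated macrophages, had 81.1, 10.0, 32.9 and 47.6 TPM in A/J, against 233, 165, 204 and 201 TPM in C57BL/6J (log2 fold change -2.25 ± 0.53, SE, edgeR adjusted p = 0.0190). Its call was lost without A/J library 4, C57BL/6J library 1 or C57BL/6J library 3, at an edgeR adjusted p of up to 0.0556. Itgax, which encodes the integrin CD11c and has the AP-1 letters in its promoter, had 85.8, 12.2, 54.7 and 46.2 TPM in A/J, against 219.9, 123, 164 and 189.6 TPM in C57BL/6J (log2 fold change -1.84 ± 0.50, SE, edgeR adjusted p = 0.0334). Mmp12, the macrophage elastase, had 189.9, 8.06, 78.9 and 134 TPM in A/J, against 597, 421, 699 and 492 TPM in C57BL/6J (log2 fold change -2.46 ± 0.74, SE, edgeR adjusted p = 0.0492). The groups of both genes did not overlap, yet both calls held only without A/J library 1 or A/J library 2 and were lost without any of the other 6 libraries, at an edgeR adjusted p of up to 0.0893 for Itgax and 0.114 for Mmp12.

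Other abundant members had lower levels in A/J that did not pass both limits. Lpl, lipoprotein lipase, had 736, 129, 453 and 531 TPM in A/J, against 1459, 1064, 1154 and 1188 TPM in C57BL/6J (log2 fold change -1.43 ± 0.44, SE, edgeR adjusted p = 0.0514). Lgals3, which encodes galectin-3, had a log2 fold change of -0.96 ± 0.20 (SE, edgeR adjusted p = 0.0120). Ctsd, the lysosomal protease cathepsin D, one of -0.97 ± 0.16 (SE, edgeR adjusted p = 0.00456). Neither gene overlapped between the strains. Ctsb (cathepsin B) had 3118, 3136, 2969.7 and 3348 TPM in A/J, against 3380.0, 3619, 3304 and 3332 TPM in C57BL/6J. Plin2, which coats lipid droplets, had 437, 521, 282 and 338 TPM in A/J, against 466, 462, 488 and 464 TPM in C57BL/6J. These 2 genes overlapped, so the members of the list did not all differ.

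The same genes were set beside untreated Kupffer cells, where diet and age cannot be told apart, and in C57BL/6J the source of the mice may differ too. Trem2 was at 15.8 and 17.8 TPM in untreated A/J, against 21.9 and 27.8 TPM in untreated C57BL/6J. The diet difference of Trem2 was 2.05 ± 0.56 (SE, edgeR adjusted p = 0.0546) in A/J and 4.83 ± 0.64 (SE, edgeR adjusted p = 7.74e-04) in C57BL/6J. Whether the 2 differed was tested as a strain by diet term, which gave -2.77 ± 0.74 (SE, edgeR adjusted p = 0.0935) and missed the threshold. Gpnmb, Spp1, Cd9 and Itgax were called higher on the diet than untreated in both strains. Of the 8347 genes tested by diet, 3.16% were called higher and 0.707% lower on the diet in A/J, 3.87% in all. In C57BL/6J 6.91% were higher and 5.08% lower, 12% in all. For Ms4a7 the strain by diet term was called at -2.92 ± 0.45 (SE, edgeR adjusted p = 0.0125). It had 19 and 30.2 TPM in untreated A/J, against 20.9 and 14.7 TPM in untreated C57BL/6J, and its diet difference was -0.043 ± 0.31 (SE) in A/J and 2.88 ± 0.35 (SE) in C57BL/6J. That term was called in 9 of 12 fits that each left out a library. The other called member was Lgals1, described with the strain by diet terms. On the same diet, BALB/cJ Kupffer cells had 120.0, 103 and 94.4 TPM of Trem2 and 5.79, 11 and 3.8 TPM of Gpnmb, values given beside the others without a test.

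**Figure D2:**
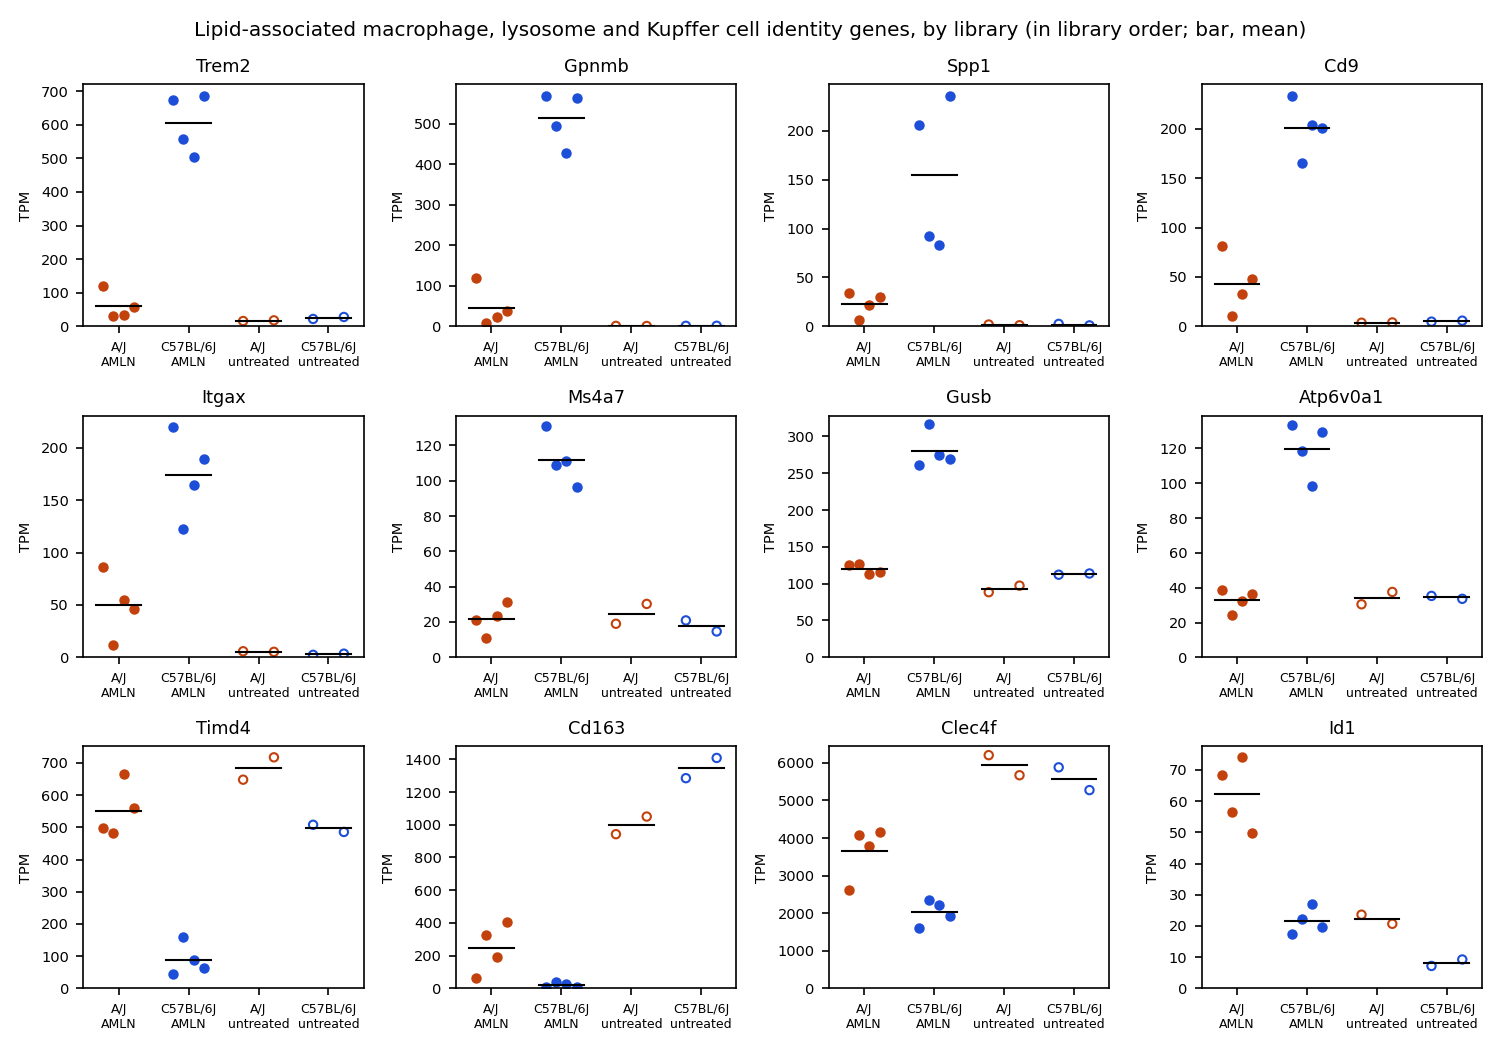
TPM of 12 genes in each library (points, in library order) of A/J and C57BL/6J Kupffer cells on the AMLN diet (filled, 4 libraries each) and untreated (open, 2 libraries each); bars are group means and every axis starts at 0. The A/J points of Trem2, Gpnmb, Ms4a7, Gusb and Atp6v0a1 on the diet all lie below the C57BL/6J points, and those of Timd4, Cd163, Clec4f and Id1 all lie above them.

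Lysosome genes were lower in A/J for part of the list. Of 33 members 32 were tested, 6 were called lower (among them Gla, Gusb, Gpnmb, Atp6v0d2 and Atp6v0a1) and none higher (edgeR, unadjusted p under 0.05: 1 higher and 11 lower; DESeq2: 0 higher and 6 lower), and Gpnmb and Atp6v0d2 are on both lists. The median was -0.23, against 0.06 over all genes, of which 4.94% were called higher and 2.86% lower. Gusb, beta-glucuronidase, had 125, 127, 114 and 115 TPM in A/J, against 261, 317, 275 and 269 TPM in C57BL/6J (log2 fold change -1.25 ± 0.13, SE, edgeR adjusted p = 4.26e-04). The groups did not overlap. Atp6v0a1, another proton pump subunit, had 38.7, 24.5, 32.5 and 36.1 TPM in A/J, against 134, 118, 98.5 and 129 TPM in C57BL/6J (log2 fold change -1.90 ± 0.17, SE, edgeR adjusted p = 2.28e-04). Gla, alpha-galactosidase A, had a log2 fold change of -1.26 ± 0.21 (SE, edgeR adjusted p = 0.00451). These 3 calls held in each of the 8 fits without 1 library. The strain by diet term was called for Gusb (-1.0 ± 0.20, SE, edgeR adjusted p = 0.0405) and Atp6v0a1 (-1.91 ± 0.27, SE, edgeR adjusted p = 0.00752). Without 1 library at a time it was called in 2 of 12 fits for Gusb and 9 of 12 for Atp6v0a1, so the term of Gusb rested on most single libraries.

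Among 23 tested genes of matrix remodelling and TGF-beta signalling, 6 were called lower in A/J (Mmp2, Mmp12, Mmp14, Mmp27, Tgfbr1 and Spp1) and 3 higher (Timp3, Bmp2 and Id1), with a median of -0.32. The shares over all tested genes were 2.86% lower and 4.94% higher. Of the lower genes 4 are matrix metalloproteinases, enzymes that cut collagen, elastin and other matrix proteins. Mmp2, gelatinase A, had 2.78, 1.65, 1.29 and 1.83 TPM in A/J, against 15.8, 8.38, 10.4 and 16.8 TPM in C57BL/6J (log2 fold change -2.77 ± 0.33, SE, edgeR adjusted p = 0.00112). Mmp14, which activates Mmp2 at the cell surface, had 70.0, 31, 41.5 and 31.5 TPM in A/J, against 132, 111, 118 and 114 TPM in C57BL/6J (log2 fold change -1.47 ± 0.28, SE, edgeR adjusted p = 0.00826). Neither overlapped between the strains. Untreated Kupffer cells had 10.4 and 8.68 TPM in A/J, against 19.8 and 18.4 TPM in C57BL/6J of Mmp14, which was also called lower there (log2 fold change -1.0 ± 0.16, SE, edgeR adjusted p = 0.00611). Mmp27 was lower in both settings as well. On the diet it had 12, 11.2, 14 and 19.2 TPM in A/J, against 57.8, 70.4, 59 and 55 TPM in C57BL/6J (log2 fold change -2.15 ± 0.17, SE, edgeR adjusted p = 1.37e-04). Untreated cells had 14.4 and 15.1 TPM in A/J, against 57.7 and 62.9 TPM in C57BL/6J. Tgfbr1, the type I receptor of TGF-beta, had a log2 fold change of -1.04 ± 0.29 (SE, edgeR adjusted p = 0.0356). Its call was lost without A/J library 2, A/J library 4 or any C57BL/6J library, at an edgeR adjusted p of up to 0.0936. Timp3 and Bmp2 are described with the endothelial genes.

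Genes that mark resident Kupffer cells were abundant in both strains, as the label of the cells says. The sum over the 32 members was 22318, 27125, 25165 and 25820.4 TPM in A/J, against 17715, 22812, 19805 and 18996 TPM in C57BL/6J, and 1 A/J library lay below the highest C57BL/6J library. Of 31 tested members 4 were called higher in A/J (Timd4, Cd163, C6 and Id1), 1 was called lower (Tgfbr1), and the median was 0.25. Timd4, a receptor for dying cells found on resident Kupffer cells, had 499, 483, 665 and 560.1 TPM in A/J, against 45.3, 158, 87.7 and 61.8 TPM in C57BL/6J. The groups did not overlap (log2 fold change 2.60 ± 0.37, SE, edgeR adjusted p = 0.00220). Cd163, the scavenger receptor for haemoglobin, had 64.2, 326, 194 and 403 TPM in A/J, against 7.43, 35.7, 23.4 and 9.91 TPM in C57BL/6J (log2 fold change 3.63 ± 0.68, SE, edgeR adjusted p = 0.00791). A/J library 1 was the lowest of its group for Cd163 and still above the highest C57BL/6J library. Both calls held in each of the 8 fits without 1 library.

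In untreated cells Timd4 was at 648 and 718 TPM in A/J, against 508 and 486 TPM in C57BL/6J. Cd163 was at 942 and 1050.1 TPM in untreated A/J, against 1285 and 1408 TPM in untreated C57BL/6J, and neither gene had a strain call there. In A/J the diet differences were -0.17 ± 0.37 (SE, edgeR adjusted p = 0.799) for Timd4 and -1.89 ± 0.64 (SE, edgeR adjusted p = 0.113) for Cd163 and were not called. In C57BL/6J the levels on the diet lay below the untreated ones, with a diet difference of -2.27 ± 0.36 (SE, edgeR adjusted p = 0.00160) for Timd4 and -5.92 ± 0.70 (SE, edgeR adjusted p = 4.24e-04) for Cd163. The strain by diet terms were 2.10 ± 0.53 (SE, edgeR adjusted p = 0.0813) for Timd4 and 4.02 ± 0.99 (SE, edgeR adjusted p = 0.0742) for Cd163, so a difference between the strains in the size of the change was not called. BALB/cJ libraries on the diet had 294, 419 and 261 TPM of Timd4 and 883, 593 and 540.3 TPM of Cd163.

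Id1, a target of BMP signalling, had 68.3, 56.6, 74.2 and 49.8 TPM in A/J, against 17.6, 22.2, 26.9 and 19.5 TPM in C57BL/6J (log2 fold change 1.49 ± 0.19, SE, edgeR adjusted p = 0.00151), without overlap. It was called higher in untreated A/J cells too (log2 fold change 1.43 ± 0.26, SE, edgeR adjusted p = 0.00973). C6, a component of the membrane attack complex, had 276, 474, 644 and 504 TPM in A/J, against 134, 314, 174 and 179 TPM in C57BL/6J, and the groups overlapped (log2 fold change 1.19 ± 0.30, SE, edgeR adjusted p = 0.0270). That call was lost without A/J library 3 or 4 or C57BL/6J library 1, 3 or 4, at an edgeR adjusted p of up to 0.0858. Clec4f, the lectin used to define rodent Kupffer cells, had 2606, 4074, 3794 and 4173 TPM in A/J, against 1595, 2345, 2222 and 1917 TPM in C57BL/6J. The groups did not overlap, and the difference of 0.81 ± 0.18 (SE, edgeR adjusted p = 0.0169) stayed inside the fold limit. Vsig4, the complement receptor CRIg, Cd5l, a secreted scavenger protein, and Csf1r, the receptor for macrophage growth factor, overlapped between the strains, with log2 fold changes of 0.25 ± 0.29, 0.21 ± 0.20 and 0.28 ± 0.14 (SE). Marco, a scavenger receptor for bacteria, had 91.8, 83.4, 64.1 and 65.7 TPM in A/J, against 16.2, 213, 140.4 and 20.1 TPM in C57BL/6J, so the C57BL/6J libraries spread beyond the A/J libraries on both sides.

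Of 8 tested Fc receptors 2 were higher (Fcgr2b and Fcgrt) and 1 was lower (Fcrl1). Of 17 tested genes of the uptake of dying cells 2 were higher (Timd4 and Cd300lf) and none lower. Over all tested genes 4.94% were called higher and 2.86% lower. Fcgrt, the neonatal Fc receptor that recycles IgG, had 336, 887, 696 and 769 TPM in A/J, against 157, 163, 142 and 163 TPM in C57BL/6J (log2 fold change 2.06 ± 0.26, SE, edgeR adjusted p = 0.00144). It was called higher in untreated A/J cells as well, at 1123 and 1098 TPM in A/J, against 516 and 507 TPM in C57BL/6J. Mrc1, the mannose receptor, had 406, 613, 886 and 817 TPM in A/J, against 287, 332, 273 and 266 TPM in C57BL/6J (log2 fold change 1.17 ± 0.21, SE, edgeR adjusted p = 0.00605). Cd300lf, a lipid receptor that takes part in the uptake of dying cells, had 142, 125, 112 and 104 TPM in A/J, against 37.9, 59.4, 64.9 and 47.1 TPM in C57BL/6J (log2 fold change 1.18 ± 0.21, SE, edgeR adjusted p = 0.00630). No library of these 3 genes overlapped, and the calls held in each of the 8 fits without 1 library. Fcrl1, an Fc receptor-like protein known from B cells, was lower in A/J at 3.63, 1.56, 2.77 and 1.81 TPM in A/J, against 17.1, 15.2, 12.8 and 15.9 TPM in C57BL/6J (log2 fold change -2.67 ± 0.29, SE, edgeR adjusted p = 6.74e-04).

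Of 18 tested complement genes 3 were higher in A/J (C3, C4b and C6) and 3 were lower (C5ar1, C3ar1 and Itgam), beside 4.94% higher and 2.86% lower over all tested genes. The count of higher genes was 1 without C57BL/6J library 1, 3 or 4, and that of lower genes was 3 in every fit without 1 library. The lower genes are receptors. C5ar1, the receptor for C5a, had 49.2, 72.6, 54 and 77.1 TPM in A/J, against 152, 202, 182 and 138 TPM in C57BL/6J (log2 fold change -1.45 ± 0.19, SE, edgeR adjusted p = 0.00151). C3ar1, the receptor for C3a, had a log2 fold change of -1.16 ± 0.22 (SE, edgeR adjusted p = 0.00757). Itgam, which encodes CD11b, the chain of complement receptor 3 that was part of the sort gate, had 18.7, 24.1, 28.1 and 33.5 TPM in A/J, against 52, 67.9, 55.7 and 58.2 TPM in C57BL/6J (log2 fold change -1.22 ± 0.16, SE, edgeR adjusted p = 0.00155). None of the 3 receptors overlapped between the strains, and each call held in each fit without 1 library. C4b, a component of the classical pathway, had 128, 191, 172 and 189 TPM in A/J, against 35.1, 99.5, 43.5 and 45.5 TPM in C57BL/6J on the diet (log2 fold change 1.56 ± 0.32, SE, edgeR adjusted p = 0.0117). Untreated cells had 158 and 64.3 TPM in A/J, against 304 and 304 TPM in C57BL/6J. Its strain by diet term was called at 2.94 ± 0.63 (SE, edgeR adjusted p = 0.0469), in 4 of 12 fits without 1 library. C3, the central component, had 101, 323, 106 and 150.5 TPM in A/J, against 38.3, 90.1, 51.4 and 43.8 TPM in C57BL/6J (log2 fold change 1.58 ± 0.45, SE, edgeR adjusted p = 0.0388). The C3 call was lost without A/J library 2 or 4 or C57BL/6J library 1, 3 or 4, at an edgeR adjusted p of up to 0.113, and A/J library 2 was also the one with the most hepatocyte RNA.

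Genes of liver endothelial cells were higher in A/J Kupffer cell libraries. Of 20 LSEC markers 18 were tested, 15 were called higher and none lower (edgeR, unadjusted p under 0.05: 18 higher and 0 lower; DESeq2: 16 higher and 0 lower), with a median of 2.89. Some members passed the level limit through A/J alone, among them Kdr, Flt4 and Bmp2, with means of 3.99, 3.05 and 2.55 TPM in C57BL/6J. Such genes could only be called higher, so the filter leaned these counts and the median toward A/J. The summed level of the list was 976, 2207, 1696 and 1921 TPM in A/J, against 402, 574, 463 and 480.0 TPM in C57BL/6J. A/J library 1 held the least of its group, and every A/J library lay above every C57BL/6J library. Untreated A/J and C57BL/6J libraries summed to 796 and 864 TPM and 786 and 727 TPM, and BALB/cJ libraries on the diet to 1841, 1519.7 and 5384 TPM. When A/J library 1 alone was set against the C57BL/6J libraries, 8 of the 15 genes were tested and 2 of these were called higher. In that fit 178 of the 261 tested genes among the 385 called higher, and 152 of the 223 called lower, were called again.

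Kdr, the receptor for VEGF, had 5.2, 71.9, 81.9 and 86.6 TPM in A/J, against 3.01, 3.91, 3.9 and 5.15 TPM in C57BL/6J (log2 fold change 3.87 ± 0.72, SE, edgeR adjusted p = 0.00741). A/J library 1 was level with the highest C57BL/6J library and the other 3 A/J libraries were far above it. Clec4g, a lectin of sinusoidal endothelium, had 24.4, 269, 151 and 214 TPM in A/J, against 7.63, 18.2, 14.1 and 14.6 TPM in C57BL/6J, with A/J library 1 again the lowest of its group (log2 fold change 3.54 ± 0.65, SE, edgeR adjusted p = 0.00715). Bmp2, a growth factor from LSECs, had 2.61, 36.8, 33.8 and 37.5 TPM in A/J, against 1.87, 2.16, 2.32 and 3.86 TPM in C57BL/6J (log2 fold change 3.37 ± 0.70, SE, edgeR adjusted p = 0.0116). Timp3, an inhibitor of metalloproteinases, had 2.93, 18.8, 16.2 and 18.8 TPM in A/J, against 2.56, 2.62, 2.12 and 5.1 TPM in C57BL/6J (log2 fold change 2.13 ± 0.53, SE, edgeR adjusted p = 0.0254). For both, A/J library 1 lay within the C57BL/6J range, and the call of Timp3 was lost without A/J library 4 or C57BL/6J library 1, 2 or 3, at an edgeR adjusted p of up to 0.0816. Fcgr2b, the inhibitory Fc receptor that LSECs also carry, had 56.7, 177, 192 and 222 TPM in A/J, against 56, 35.3, 28.2 and 59.1 TPM in C57BL/6J (log2 fold change 1.80 ± 0.40, SE, edgeR adjusted p = 0.0151), with A/J library 1 again inside the range of C57BL/6J. In untreated cells, where the LSEC sums of the strains were alike, Fcgr2b was called higher in A/J at 55.3 and 40.6 TPM in untreated A/J, against 3.84 and 2.61 TPM in untreated C57BL/6J.

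Dnase1l3, a secreted DNase made by macrophages and LSECs, did not follow that order. It had 321, 288, 237 and 242 TPM in A/J, against 28.5, 26.5, 31.3 and 31.6 TPM in C57BL/6J, with A/J library 1 the highest (log2 fold change 3.18 ± 0.17, SE, edgeR adjusted p = 1.53e-05). Untreated levels were 106 and 86.9 TPM in A/J, against 35.1 and 42.7 TPM in C57BL/6J (log2 fold change 1.30 ± 0.18, SE, edgeR adjusted p = 0.00325). Its strain by diet term was called at 1.84 ± 0.31 (SE, edgeR adjusted p = 0.0167) in 9 of 12 fits without 1 library. Pecam1, the adhesion molecule CD31, had 113, 199, 179 and 165 TPM in A/J, against 23.9, 52.1, 36 and 24.6 TPM in C57BL/6J and was called also with A/J library 1 alone (log2 fold change 2.22 ± 0.29, SE, edgeR adjusted p = 0.00155). Neither gene was called by strain in untreated LSECs, with log2 fold changes of 0.18 ± 0.074 (SE, edgeR adjusted p = 0.106) for Dnase1l3 and -0.28 ± 0.088 (SE, edgeR adjusted p = 0.0416) for Pecam1.

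Hepatocyte RNA varied between A/J libraries more than between strains. The sum of 20 hepatocyte genes was 627, 6092, 568 and 3797 TPM in A/J, against 1009, 1476, 800.4 and 1061 TPM in C57BL/6J. A/J libraries 2 and 4 were above all others, and A/J libraries 1 and 3 were below all others. No member of 19 tested was called by edgeR, 5 had an unadjusted p under 0.05, all higher, DESeq2 called 2 higher, and the median was 2.21. Alb, serum albumin, had 130.1, 2014, 63.9 and 1627 TPM in A/J, against 95.7, 365, 101 and 126 TPM in C57BL/6J (log2 fold change 2.45 ± 1.05, SE, edgeR adjusted p = 0.139). Apoa1, the main protein of HDL, had 16.9, 374, 11.3 and 176 TPM in A/J, against 17.1, 74.6, 28.6 and 28.7 TPM in C57BL/6J. Ehhadh, a peroxisomal enzyme of fatty acid oxidation, was called higher with 6.51, 82.5, 8.74 and 62 TPM in A/J, against 5.17, 6.54, 3.95 and 4.72 TPM in C57BL/6J (log2 fold change 2.94 ± 0.80, SE, edgeR adjusted p = 0.0346). Its levels followed the same order of libraries, and the call was lost without A/J library 2 or 4 or any C57BL/6J library, at an edgeR adjusted p of up to 0.102.

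Stellate cell genes followed the hepatocyte genes across libraries, with a sum of 152, 619, 98.6 and 616 TPM in A/J, against 139, 188, 144 and 224 TPM in C57BL/6J. Of 7 tested markers 2 were called higher, Colec10, a collectin, and Rgs5, a regulator of G protein signalling known from pericytes. The count was 6 without A/J library 3, 4 without A/J library 1 and 1 without A/J library 4 or any C57BL/6J library. Rgs5 had 12.1, 42.8, 6.24 and 66.5 TPM in A/J, against 3.37, 3.33, 3.65 and 3.45 TPM in C57BL/6J (log2 fold change 3.16 ± 0.67, SE, edgeR adjusted p = 0.0128). Colec10 had 2.14, 15.6, 3.05 and 27.1 TPM in A/J, against 0.558, 1.77, 1.46 and 1.27 TPM in C57BL/6J, and its call was lost without A/J library 4 or any C57BL/6J library, at an edgeR adjusted p of up to 0.0828. Dcn, the matrix proteoglycan decorin, had 20.8, 116, 12.2 and 168 TPM in A/J, against 11.2, 15.5, 12.2 and 25.8 TPM in C57BL/6J and was not called (log2 fold change 2.25 ± 0.78, SE, edgeR adjusted p = 0.0765). A/J libraries 2 and 4 were high for all 3 genes.

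Red cell genes were higher in A/J, where 4 of 5 tested genes of the erythroid and platelet list were called higher and 1 lower. The 4 higher genes are globins that passed the level limit through A/J alone, with means of 0.326 to 1.89 TPM in C57BL/6J. They could only be called higher, and the median of 6.38 rests on them. Hba-a1 and Hba-a2 had the same counts in A/J libraries 3 and 4 and in every C57BL/6J library. The summed level of 13 erythroid and platelet genes was 369, 560.0, 383 and 619.7 TPM in A/J, against 88.1, 86.5, 97.1 and 85.6 TPM in C57BL/6J, and all A/J libraries lay above all C57BL/6J libraries. Hbb-bs, a beta-globin, had 155, 309, 129 and 216 TPM in A/J, against 0.750, 5.06, 0.910 and 0.843 TPM in C57BL/6J (log2 fold change 6.69 ± 0.69, SE, edgeR adjusted p = 5.11e-04). Hba-a1, an alpha-globin, had 96.8, 106, 111 and 168 TPM in A/J, against 0.859, 1.97, 0.463 and 2.17 TPM in C57BL/6J (log2 fold change 6.41 ± 0.43, SE, edgeR adjusted p = 4.79e-05). The strains carry different beta-globin haplotypes and globin genes have near-identical copies, so the level of a single globin gene is uncertain. In untreated cells Hbb-bs was at 282 and 50.0 TPM in A/J, against 18.8 and 17.3 TPM in C57BL/6J, and the untreated A/J libraries differed from each other. Pf4, the chemokine platelet factor 4, ran the other way with 8.74, 8.76, 11.4 and 36.8 TPM in A/J, against 83.5, 74.3, 93 and 78.5 TPM in C57BL/6J (log2 fold change -2.41 ± 0.45, SE, edgeR adjusted p = 0.00744), so the list did not move as 1 group.

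**Figure D3:**
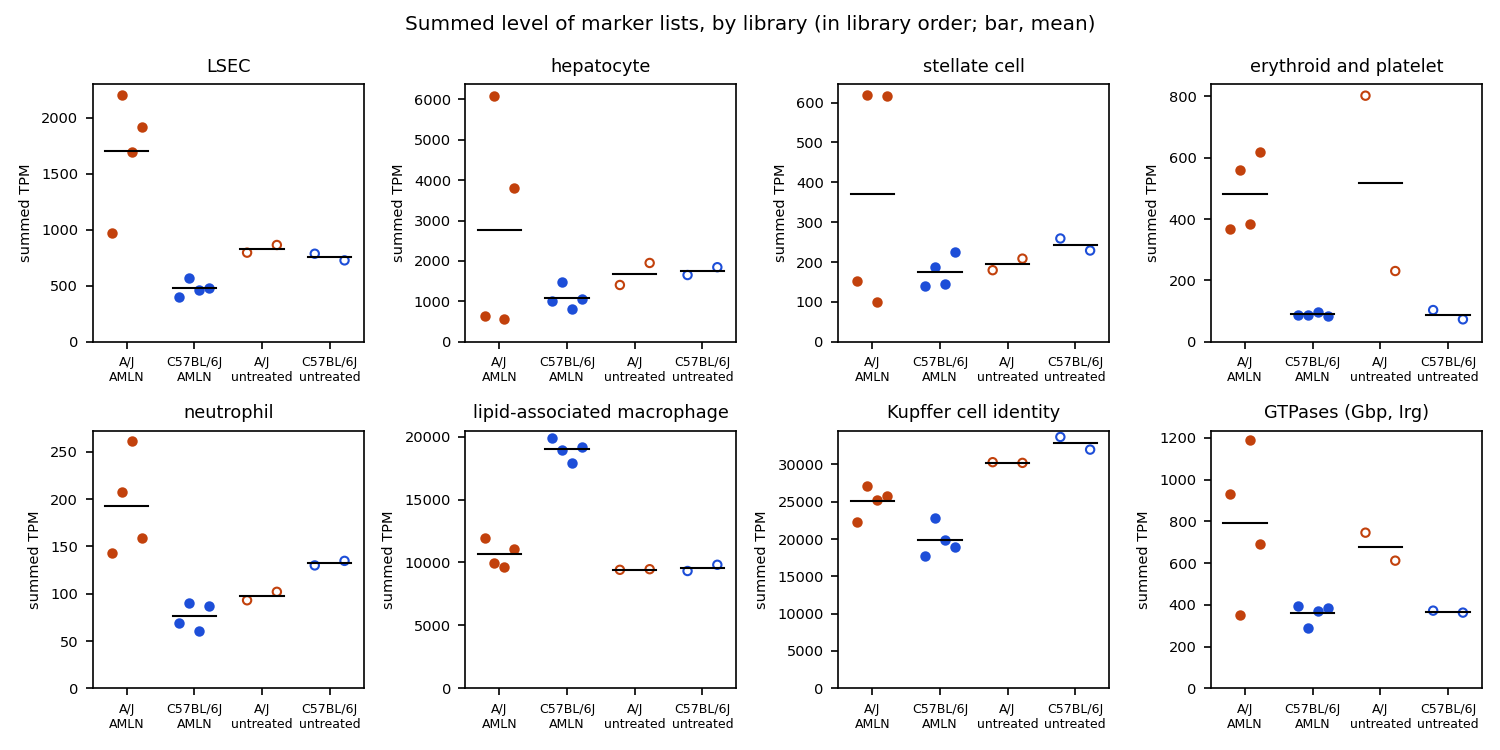
Summed TPM of 8 gene lists in each library (points, in library order) of A/J and C57BL/6J Kupffer cells on the AMLN diet (filled, 4 libraries each) and untreated (open, 2 libraries each); bars are group means and every axis starts at 0. A/J libraries 2 and 4 stand high for hepatocyte and stellate cell genes, all 4 A/J libraries lie above the C57BL/6J libraries for LSEC, erythroid and neutrophil genes, and all 4 lie below them for lipid-associated macrophage genes.

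Neutrophil genes were also higher in A/J, where 3 of 4 tested members of a list of 13 were called higher (S100a8, S100a9 and Ngp) and none lower. Of the B and plasma cell list 3 of 12 members were tested, of which 1 was higher (Jchain) and 1 lower (Cd79b). S100a8 and S100a9, the calcium-binding proteins that neutrophils make in large amounts, differed without overlap. S100a8 had 34.7, 60.0, 76.1 and 42.1 TPM in A/J, against 9.37, 9.55, 7.62 and 14.2 TPM in C57BL/6J, and S100a9 had 36.1, 71.3, 68 and 37.1 TPM in A/J, against 8.36, 12.6, 6.17 and 11.7 TPM in C57BL/6J. The log2 fold changes were 2.34 ± 0.30 (SE, edgeR adjusted p = 0.00147) for S100a8 and 2.41 ± 0.33 (SE, edgeR adjusted p = 0.00201) for S100a9. Ngp, a protein of neutrophil granules, had 6.03, 10.2, 17.3 and 5.79 TPM in A/J, against 0.618, 3.09, 0.222 and 1.04 TPM in C57BL/6J, and its call was lost without A/J library 3 or C57BL/6J library 1 or 4 (edgeR adjusted p of up to 0.0762). Jchain, which joins IgA and IgM units in plasma cells, had 34, 105, 66 and 56.8 TPM in A/J, against 6.16, 4.08, 1.86 and 4.24 TPM in C57BL/6J (log2 fold change 3.97 ± 0.45, SE, edgeR adjusted p = 8.09e-04). Cd79b, part of the B cell receptor, was lower in A/J at 6.06, 9.52, 6.55 and 8.02 TPM in A/J, against 18.9, 21.7, 18.4 and 16.3 TPM in C57BL/6J (log2 fold change -1.35 ± 0.20, SE, edgeR adjusted p = 0.00256). Nkg7, a protein of cytotoxic granules, had a log2 fold change of -1.41 ± 0.41 (SE, edgeR adjusted p = 0.0462) with overlapping groups, and the call was lost without A/J library 2 or 4 or C57BL/6J library 1, 3 or 4 (edgeR adjusted p of up to 0.132).

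Of 37 tested interferon-stimulated genes 2 were called higher (Ifi44l and Ifi44) and 1 lower (Xaf1), near the shares of 4.94% higher and 2.86% lower over all tested genes. Their median was -0.23, against 0.06 over all genes. Without A/J library 1, 6 members were called lower. Ifi44l (chr3:151758737-151762891) had 2128, 1168, 1515 and 1614 counts in A/J and 0, 0, 1 and 0 counts in C57BL/6J, so the gene was all but unread in C57BL/6J and no fold is given. It was at 95 and 123 TPM in untreated A/J, against 0 and 0 TPM in untreated C57BL/6J. Its neighbour Ifi44 had 65.6, 31.2, 82.3 and 93 TPM in A/J, against 20.1, 16, 26.3 and 19.4 TPM in C57BL/6J on the diet (log2 fold change 1.67 ± 0.30, SE, edgeR adjusted p = 0.00642). Untreated cells had 68.8 and 99 TPM in A/J, against 5.64 and 3.19 TPM in C57BL/6J. Xaf1, a proapoptotic interferon target, had 20.7, 10.5, 12 and 17.1 TPM in A/J, against 42.1, 58.5, 80.9 and 42.3 TPM in C57BL/6J (log2 fold change -1.93 ± 0.30, SE, edgeR adjusted p = 0.00364). Untreated cells had 14.2 and 14.6 TPM in A/J, against 10.6 and 8.04 TPM in C57BL/6J. Both strain by diet terms were called and negative, at -2.60 ± 0.51 (SE, edgeR adjusted p = 0.0366) for Ifi44 and -2.58 ± 0.49 (SE, edgeR adjusted p = 0.0335) for Xaf1, each in 5 of 12 fits without 1 library.

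Guanylate-binding proteins and immunity-related GTPases, which attack the vacuoles of intracellular microbes, were higher in A/J. Of 13 tested members 5 were called higher (Gbp4, Gbp5, Gbp7, Gbp8 and Iigp1) and none lower, beside 4.94% higher over all tested genes. The median was 0.93 on the diet and 0.89 in untreated cells. The count was 7 of these 13 without A/J library 2 and 3 without C57BL/6J library 2 or 3. These genes lie in families of similar copies, so the split of reads between members is uncertain. Gbp4 had 154, 43.9, 198 and 89.8 TPM in A/J, against 7.83, 4.78, 6.87 and 8.69 TPM in C57BL/6J (log2 fold change 4.06 ± 0.46, SE, edgeR adjusted p = 7.94e-04). Gbp7 had 41.5, 21.2, 79 and 52.2 TPM in A/J, against 13.3, 13, 13.5 and 12.8 TPM in C57BL/6J (log2 fold change 1.81 ± 0.31, SE, edgeR adjusted p = 0.00524). A/J library 2 was the lowest of its group for both and still above C57BL/6J. Iigp1 had 56.4, 15.2, 134 and 62.8 TPM in A/J, against 19.5, 11.6, 17.3 and 19.8 TPM in C57BL/6J, and A/J library 2 lay within C57BL/6J. Its call (edgeR adjusted p = 0.0348) held only without A/J library 1 or A/J library 2 and was otherwise lost at an edgeR adjusted p of up to 0.0940. The calls of Gbp5 and Gbp8 were lost without C57BL/6J library 2 or 3 for Gbp5 (edgeR adjusted p of up to 0.0575) and without A/J library 1 for Gbp8, whose log2 fold changes over the 8 fits were 0.92 to 1.40.

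Genes of MHC class II presentation were abundant in both strains, and 2 of 13 tested were called higher, beside 4.94% higher over all tested genes. H2-Ea-ps (chr17:34341952-34344645), the class II E alpha gene that the C57BL/6J haplotype does not transcribe, had 3538, 2717, 3793 and 3174 TPM in A/J, against 0, 1.87, 0.741 and 0.944 TPM in C57BL/6J. The untreated values were 2965 and 1338 TPM in A/J, against 0 and 0.198 TPM in C57BL/6J, so this known strain difference marked every library with its labelled strain. H2-DMb2, a chain of the peptide exchange factor H2-DM, had 43, 53, 45 and 44.2 TPM in A/J, against 7.86, 8.86, 6.99 and 12.5 TPM in C57BL/6J (log2 fold change 2.32 ± 0.21, SE, edgeR adjusted p = 2.72e-04). Cd74, the invariant chain, had 22434, 15208, 14463 and 12030.0 TPM in A/J, against 11969, 9304, 10868 and 11412 TPM in C57BL/6J. H2-Aa had 6285, 4307, 7585 and 5521 TPM in A/J, against 5757, 4143, 4905 and 5263 TPM in C57BL/6J. Neither was called, with log2 fold changes of 0.54 ± 0.23 (SE, edgeR adjusted p = 0.135) for Cd74 and 0.20 ± 0.18 (SE, edgeR adjusted p = 0.470) for H2-Aa.

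Calls among chemokine and NF-kB genes were all lower in A/J. Of 21 tested chemokines and their receptors 3 were lower (Ccl9, Cxcl14 and Pf4), and of 23 tested NF-kB and cytokine genes 2 were lower (Irak3 and Bcl2a1b), beside 2.86% lower over all tested genes. The medians were 0.094 for the chemokine list and 0.045 for the NF-kB list, against 0.06 over all genes, and DESeq2 called 2 chemokine genes and 1 NF-kB gene higher and 3 of each list lower. Ccl9, a monocyte chemokine, had 13.9, 19.2, 35.7 and 36 TPM in A/J, against 121, 92.4, 107 and 90.6 TPM in C57BL/6J (log2 fold change -2.04 ± 0.27, SE, edgeR adjusted p = 0.00172) and was lower in untreated A/J cells too, at 17.3 and 13.2 TPM in A/J, against 82.7 and 100.4 TPM in C57BL/6J. Bcl2a1b, an antiapoptotic NF-kB target with near-identical copies, had a log2 fold change of -1.21 ± 0.20 (SE, edgeR adjusted p = 0.00419). Cxcl14 had 36.2, 8.12, 6.8 and 12.9 TPM in A/J, against 64.7, 51.9, 59.3 and 57.8 TPM in C57BL/6J. A/J library 1 stood above the other A/J libraries, and without any library other than A/J library 1 the call was lost (edgeR adjusted p of up to 0.0980). Irak3, a brake on Toll-like receptor signalling, had 5.78, 5.29, 8.19 and 7.66 TPM in A/J, against 8.82, 25.6, 14.7 and 9.1 TPM in C57BL/6J (log2 fold change -1.17 ± 0.34, SE, edgeR adjusted p = 0.0462). Its call held only without C57BL/6J library 1 or 4 and was otherwise lost at an edgeR adjusted p of up to 0.106.

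Of the immediate-early genes, the first to respond to a stimulus and to cell handling, 20 were tested, 3 were higher (Fos, Ier3 and Klf4) and 1 was lower (Atf3). Over all tested genes 4.94% were called higher and 2.86% lower. In other liver cells 13 of the 20 had a level over 2 times that of untreated Kupffer cells, and only 1 of the 3 higher genes did not. Without C57BL/6J library 3 the higher count was 5. Fos, a subunit of AP-1, had 268, 322, 536 and 474 TPM in A/J, against 66.5, 93.4, 150.4 and 42.9 TPM in C57BL/6J (log2 fold change 2.12 ± 0.38, SE, edgeR adjusted p = 0.00652), without overlap. Klf4 had 7.29, 17.4, 21.3 and 18.5 TPM in A/J, against 4.48, 6.28, 6.1 and 5.28 TPM in C57BL/6J (log2 fold change 1.48 ± 0.29, SE, edgeR adjusted p = 0.00887). Atf3, a stress factor, had 64, 20.0, 36.1 and 38.5 TPM in A/J, against 111, 75.7, 79.6 and 125 TPM in C57BL/6J, and its call was lost without A/J library 3 or 4 or C57BL/6J library 1, 3 or 4 (edgeR adjusted p of up to 0.0838). The call of Ier3 was lost without A/J library 3 or 4 or C57BL/6J library 1, 2 or 4 (edgeR adjusted p of up to 0.0906). The parts of cell handling and of other liver cells in these genes were not tested. No heat shock gene of 13 tested was called by edgeR or DESeq2, and 0 higher and 1 lower genes had an unadjusted edgeR p under 0.05.

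Among genes of lipid metabolism inside the cell some lists held calls and others none, beside 7.8% called over all tested genes. None of 14 tested genes of cholesterol synthesis was called by edgeR or DESeq2 (unadjusted edgeR p under 0.05 in 1 gene higher and 2 lower), and their sum was 280.5, 293, 301 and 344 TPM in A/J, against 334, 338, 360.2 and 323 TPM in C57BL/6J. Of 21 tested LXR targets and genes of cholesterol efflux 1 was higher and 1 lower. The lower gene was Apoc1, an apolipoprotein, with 138, 369, 190.0 and 405 TPM in A/J, against 1069.5, 1253, 1030.0 and 1254 TPM in C57BL/6J (log2 fold change -2.11 ± 0.33, SE, edgeR adjusted p = 0.00348). The higher gene was Fads1, a desaturase that makes arachidonic acid, with 107, 101, 129 and 137 TPM in A/J, against 42.6, 40.0, 41.8 and 37.5 TPM in C57BL/6J (log2 fold change 1.5 ± 0.10, SE, edgeR adjusted p = 4.89e-05). Its untreated values were 144 and 167 TPM in A/J, against 41.3 and 41 TPM in C57BL/6J (log2 fold change 1.90 ± 0.11, SE, edgeR adjusted p = 1.89e-05). None of its strain differences in BMDMs, LSECs, stellate cells or hepatocytes was called. Acot1, an acyl-CoA thioesterase with close paralogs, was higher at 43.5, 98.8, 71.5 and 84.7 TPM in A/J, against 17.5, 21.3, 20.6 and 17 TPM in C57BL/6J (log2 fold change 1.92 ± 0.24, SE, edgeR adjusted p = 0.00131). Acot1 and Ehhadh were the 2 higher calls among 20 tested genes of fatty acid oxidation and PPAR targets, where none was lower, DESeq2 called 1 lower, and the median was 0.23. The summed level of that list ran the other way, at 1677, 1529, 1586 and 1934 TPM in A/J, against 2783, 2304, 2423 and 2402 TPM in C57BL/6J, without overlap. None of 27 tested genes of oxidative phosphorylation was called by edgeR or DESeq2 (unadjusted edgeR p under 0.05 in 0 higher and 1 lower).

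Of 12 tested genes of cell division 2 were lower in A/J, beside 2.86% lower over all tested genes. The count was 6 without A/J library 1 and 0 without A/J library 3, C57BL/6J library 1 or C57BL/6J library 3. Ccnb2, a mitotic cyclin, had a log2 fold change of -1.01 ± 0.23 (SE, edgeR adjusted p = 0.0185) and Mcm6, a subunit of the replicative helicase, one of -1.01 ± 0.23 (SE, edgeR adjusted p = 0.0182). Both lay at the fold limit. Ccnb2 was lost without A/J library 3 or 4 or C57BL/6J library 1, 3 or 4, and Mcm6 without A/J library 2 or 3 or C57BL/6J library 1 or 3, at an edgeR adjusted p of up to 0.0636 for Ccnb2 and 0.0602 for Mcm6.

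Among 11 genes that the study named in Kupffer cells, chosen by it on libraries of this series and so no independent set, 10 were tested on the diet, 2 were higher (Cd300e and Fads1) and 4 lower (Irak3, Cxcl14, Mefv and Trem2). Cd300e (chr11:115051917-115066676), an activating receptor of myeloid cells, had 463, 519, 694 and 690.1 TPM in A/J, against 26.1, 71.4, 60.2 and 26.8 TPM in C57BL/6J (log2 fold change 3.63 ± 0.37, SE, edgeR adjusted p = 5.04e-04). It was higher in untreated A/J Kupffer cells at 803 and 889 TPM in A/J, against 169 and 174 TPM in C57BL/6J. It was also called higher in resting BMDMs (log2 fold change 2.24 ± 0.19, SE, edgeR adjusted p = 2.56e-07) and in stellate cell libraries (3.16 ± 0.46, SE, edgeR adjusted p = 0.00345). BALB/cJ libraries on the diet had 14.8, 30.4 and 20.6 TPM. Mefv, which encodes pyrin, the sensor of an inflammasome, had 4.79, 3.27, 3.21 and 2.38 TPM in A/J, against 20.3, 23, 18.5 and 20.4 TPM in C57BL/6J (log2 fold change -2.60 ± 0.24, SE, edgeR adjusted p = 2.86e-04). Cd40, a costimulatory receptor, had 33.6, 10.8, 18.6 and 10.1 TPM in A/J, against 21.3, 26, 23.2 and 24.9 TPM in C57BL/6J. Atf5, a stress transcription factor, had 23.4, 56.9, 12.3 and 32.5 TPM in A/J, against 18.1, 27.3, 18.4 and 18.7 TPM in C57BL/6J. Neither was called on the diet, whereas in untreated cells Cd40 was called lower (log2 fold change -1.92 ± 0.27, SE, edgeR adjusted p = 0.00327) and Atf5 higher (1.30 ± 0.16, SE, edgeR adjusted p = 0.00189). The strain by diet term was 1.49 ± 0.67 (SE, edgeR adjusted p = 0.302) for Cd40 and -0.76 ± 0.67 (SE, edgeR adjusted p = 0.628) for Atf5.

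Lepr, the leptin receptor, had a mean under 8 TPM in both strains on the diet and was not tested there. It had 0.513, 11.4, 10.2 and 8.29 TPM in A/J, against 1.67, 4.27, 1.67 and 2.18 TPM in C57BL/6J, and A/J library 1 lay below all others. In untreated cells it was called lower in A/J at 14.8 and 20.9 TPM in untreated A/J, against 57.3 and 85.3 TPM in untreated C57BL/6J (log2 fold change -2.03 ± 0.24, SE, edgeR adjusted p = 0.00460). Leprot, which shares the promoter region of Lepr, had 178, 187, 192 and 179 TPM in A/J, against 110.4, 133, 103 and 111 TPM in C57BL/6J (log2 fold change 0.65 ± 0.11, SE, edgeR adjusted p = 0.00490), inside the fold limit. The transcription factor Stat3 and its target Socs3, which act after the receptor, were not called, with log2 fold changes of 0.17 ± 0.12 (SE, edgeR adjusted p = 0.348) for Stat3 and 1.04 ± 0.35 (SE, edgeR adjusted p = 0.0715) for Socs3. BALB/cJ libraries on the diet had 65.4, 39.4 and 19.4 TPM of Lepr.

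The largest strain differences belonged to genes that were read in 1 strain and close to unread in the other. Among genes higher in A/J were Atp5g2 (chr15:102662868-102671047), a subunit c gene of ATP synthase, with 202, 470, 119 and 142 counts in A/J and 2, 2, 0 and 0 counts in C57BL/6J. Atp6v0e2, a proton pump subunit, had 31.6, 28.6, 30.1 and 29.3 TPM in A/J, against 0.195, 0.166, 0.140 and 0.365 TPM in C57BL/6J (log2 fold change 7.06 ± 0.27, SE, edgeR adjusted p = 4.24e-06). Cacna1a, a calcium channel of neurons, had 37.8, 36.8, 24.8 and 23.8 TPM in A/J, against 0.287, 0.669, 0.252 and 0.407 TPM in C57BL/6J (log2 fold change 6.23 ± 0.40, SE, edgeR adjusted p = 3.64e-05). Msh5 (chr17:35028605-35046997), known from meiotic recombination and placed in the MHC region, had 19.6, 22.4, 29.4 and 28.8 TPM in A/J, against 0.709, 0.488, 0.899 and 0.890 TPM in C57BL/6J (log2 fold change 5.01 ± 0.23, SE, edgeR adjusted p = 6.00e-06). For these 4 genes the groups were far apart, and untreated Kupffer cells, BMDMs, LSECs and stellate cells gave the same call. Mb21d2 had 11.6, 12.4, 20.4 and 13.8 TPM in A/J, against 0.928, 0.689, 0.750 and 0.565 TPM in C57BL/6J (log2 fold change 4.26 ± 0.23, SE, edgeR adjusted p = 1.53e-05). St6galnac2, a sialyltransferase, had 4.96, 25.8, 13.8 and 35.3 TPM in A/J, against 0.706, 1.02, 1.17 and 0.694 TPM in C57BL/6J (log2 fold change 4.41 ± 0.58, SE, edgeR adjusted p = 0.00169). St6galnac2 and Tmod4, a muscle tropomodulin, were high in A/J libraries 2 and 4, the libraries with the most hepatocyte RNA. Tmod4 had 4.05, 20.9, 2.29 and 15.3 TPM in A/J, against 0.387, 0.394, 0.417 and 0.326 TPM in C57BL/6J, and without A/J library 2 its mean fell under the level limit and it was not tested.

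Among genes lower in A/J, Vill (chr9:119052729-119071525), a villin-like actin-binding protein, had 0, 1, 0 and 0 counts in A/J and 635, 547, 377 and 488 counts in C57BL/6J. Ppfia4, a liprin, had 0.0750, 0.0610, 0.0170 and 0.0460 TPM in A/J, against 20.0, 17.2, 15.8 and 18.8 TPM in C57BL/6J (log2 fold change -8.36 ± 0.28, SE, edgeR adjusted p = 2.99e-06). Btbd11 had 0.373, 0.219, 0.0900 and 0.159 TPM in A/J, against 30.8, 58.8, 40.9 and 40.7 TPM in C57BL/6J (log2 fold change -7.59 ± 0.44, SE, edgeR adjusted p = 2.01e-05). Nxpe4 had 0.107, 0.150, 0.428 and 0.232 TPM in A/J, against 9.1, 13.3, 10.2 and 7.9 TPM in C57BL/6J (log2 fold change -5.59 ± 0.39, SE, edgeR adjusted p = 5.49e-05). These 4 genes were called lower in untreated A/J Kupffer cells too. A further group had low levels in untreated cells and in A/J cells on the diet, and higher levels in C57BL/6J cells on the diet. Vsig8, an immunoglobulin superfamily protein, had 0.853, 0.0590, 0.0580 and 0.102 TPM in A/J, against 34.2, 28.4, 30.2 and 26.6 TPM in C57BL/6J (log2 fold change -6.63 ± 0.71, SE, edgeR adjusted p = 6.28e-04). Untreated cells had 0 and 0 TPM in A/J, against 0.299 and 0.689 TPM in C57BL/6J. Nes, the intermediate filament nestin, had 0.388, 0.310, 0.221 and 0.344 TPM in A/J, against 10.1, 5.94, 11 and 8.87 TPM in C57BL/6J (log2 fold change -4.83 ± 0.28, SE, edgeR adjusted p = 2.01e-05). Untreated cells had 0.0950 and 0.154 TPM in A/J, against 0.153 and 0.126 TPM in C57BL/6J. Cd276, the immune checkpoint ligand B7-H3, had 0.962, 0.0660, 0.459 and 0.433 TPM in A/J, against 17.1, 9.23, 10.7 and 14 TPM in C57BL/6J (log2 fold change -4.74 ± 0.62, SE, edgeR adjusted p = 0.00158). Untreated cells had 0 and 0.169 TPM in A/J, against 0.549 and 0.437 TPM in C57BL/6J. Olfml3, a secreted protein known from microglia, had 2.81, 3.04, 1.32 and 1.64 TPM in A/J, against 83.9, 53.5, 60.8 and 73 TPM in C57BL/6J (log2 fold change -4.92 ± 0.34, SE, edgeR adjusted p = 5.18e-05). Untreated cells had 0.675 and 0.233 TPM in A/J, against 4.72 and 5.71 TPM in C57BL/6J. Igsf9 had 0.482, 0.397, 0.253 and 0.579 TPM in A/J, against 8.69, 8.84, 11.8 and 8.51 TPM in C57BL/6J (log2 fold change -4.48 ± 0.27, SE, edgeR adjusted p = 2.63e-05). Galnt12, a glycosyltransferase, had 0.848, 0.382, 0.614 and 0.333 TPM in A/J, against 11.1, 5.88, 7.47 and 9.33 TPM in C57BL/6J, which fell under the level limit without C57BL/6J library 1 and was called in the other 7 fits. BALB/cJ libraries on the diet had 0.0850, 0.0540 and 0.0540 TPM of Vsig8, 0.449, 0.206 and 1.98 TPM of Nes and 4.59, 7.22 and 15.7 TPM of Olfml3.

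**Figure D4:**
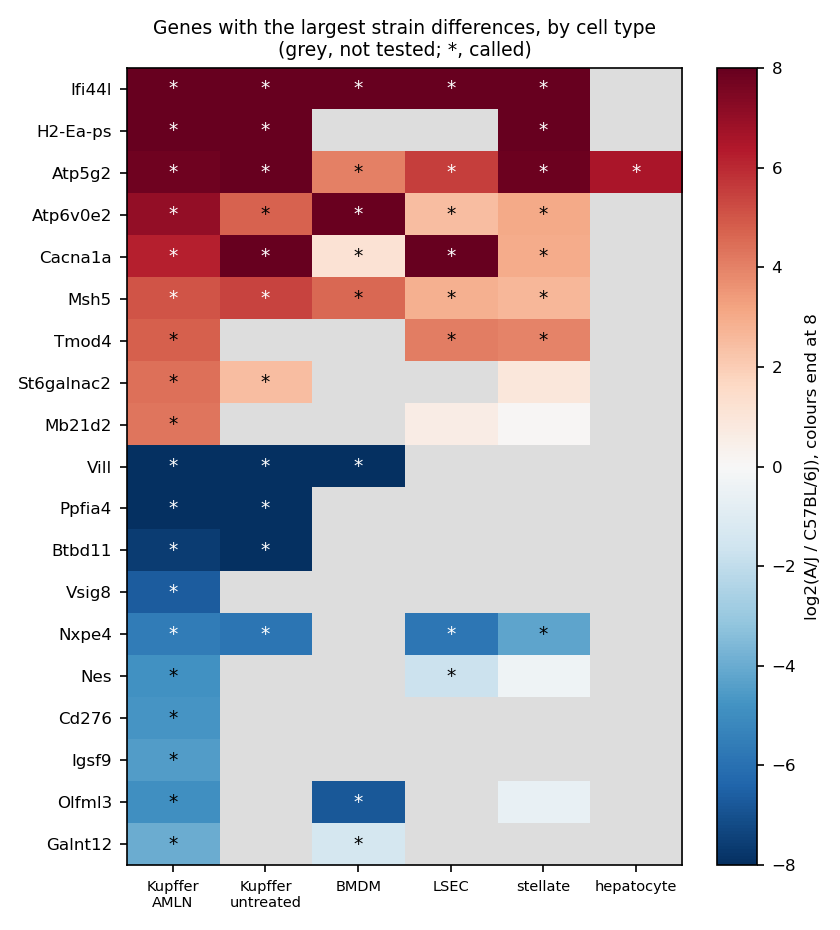
Log2 ratio of A/J over C57BL/6J (colour, ending at 8 in each direction, fitted with a prior count where 1 strain is unread) of 19 genes with large strain differences, for AMLN-fed and untreated Kupffer cells, BMDMs, LSECs, stellate cells and hepatocytes; grey marks genes not tested and a star marks a call. Ifi44l, Atp5g2, Atp6v0e2, Cacna1a and Msh5 carry a star from Kupffer cells to stellate cells, while Vsig8, Cd276 and Igsf9 carry one on the diet alone and were not tested elsewhere.

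Alleles known from inbred strains gave the following levels. Dysf, which encodes dysferlin and carries a retrotransposon insertion in A/J, had 11.4, 11.8, 9.77 and 9.63 TPM in A/J, against 41.2, 33.8, 40.9 and 43.3 TPM in C57BL/6J (log2 fold change -1.93 ± 0.15, SE, edgeR adjusted p = 1.26e-04) and was lower in untreated A/J Kupffer cells (log2 fold change -2.41 ± 0.24, SE), LSECs (-3.69 ± 0.17, SE) and stellate cells (-2.87 ± 0.20, SE) as well. Ahr, the aryl hydrocarbon receptor, had 3.11, 8.86, 13.2 and 12.7 TPM in A/J, against 2.22, 1.19, 1.15 and 2.02 TPM in C57BL/6J (log2 fold change 2.45 ± 0.43, SE, edgeR adjusted p = 0.00570), with the lowest A/J value in library 1. It is also among the genes whose level in other liver cells exceeded 2 times that of untreated Kupffer cells. The part of such cells in its call was not tested. Nnt, a mitochondrial transhydrogenase that is partly deleted in C57BL/6J, had 14.2, 19.8, 26.8 and 28.8 TPM in A/J, against 17.6, 21.7, 18.4 and 17 TPM in C57BL/6J on the diet, with overlapping groups (log2 fold change 0.21 ± 0.19, SE, edgeR adjusted p = 0.465). In untreated cells Nnt was called higher in A/J at 25.1 and 35.9 TPM in untreated A/J, against 13.6 and 10.0 TPM in untreated C57BL/6J (log2 fold change 1.34 ± 0.17, SE, edgeR adjusted p = 0.00215).

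In untreated Kupffer cells 360 of 7779 tested genes (4.63%) differed between the strains, 199 higher (2.56%) and 161 lower (2.07%) in A/J. Of the 385 genes higher on the diet, 270 were tested in untreated cells, and 88 of these (32.6%) were called higher, which is 44.2% of the 199, and 1 was called lower. Of the 223 genes lower on the diet, 145 were tested, and 60 of these (41.4%) were called lower, which is 37.3% of the 161, and 3 were called higher. The groups had 2 libraries each there, so a gene called on the diet alone is not shown to differ from its untreated state. The strain by diet term, fitted over the 12 libraries, tested that difference and was called for 107 of 8347 genes (1.28%), 42 positive (0.503%) and 65 negative (0.779%). The count ran from 12 to 494 when 1 library was left out. It was 494 without A/J AMLN library 1, 181 without A/J AMLN library 2, 70 without A/J AMLN library 4, and 48, 53 and 51 without C57BL/6J AMLN libraries 1, 3 and 4. Without untreated libraries it was 57 and 20 for A/J libraries 1 and 2, and 12 and 13 for C57BL/6J libraries 1 and 2. Across these fits 8 genes (Nrp2, Mefv, Rps25, Ldlrad3, Enpp5, Sh3pxd2b, Ptgis and Dpep2) were called in all 12. DESeq2 called 343 genes.

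**Figure D5:**
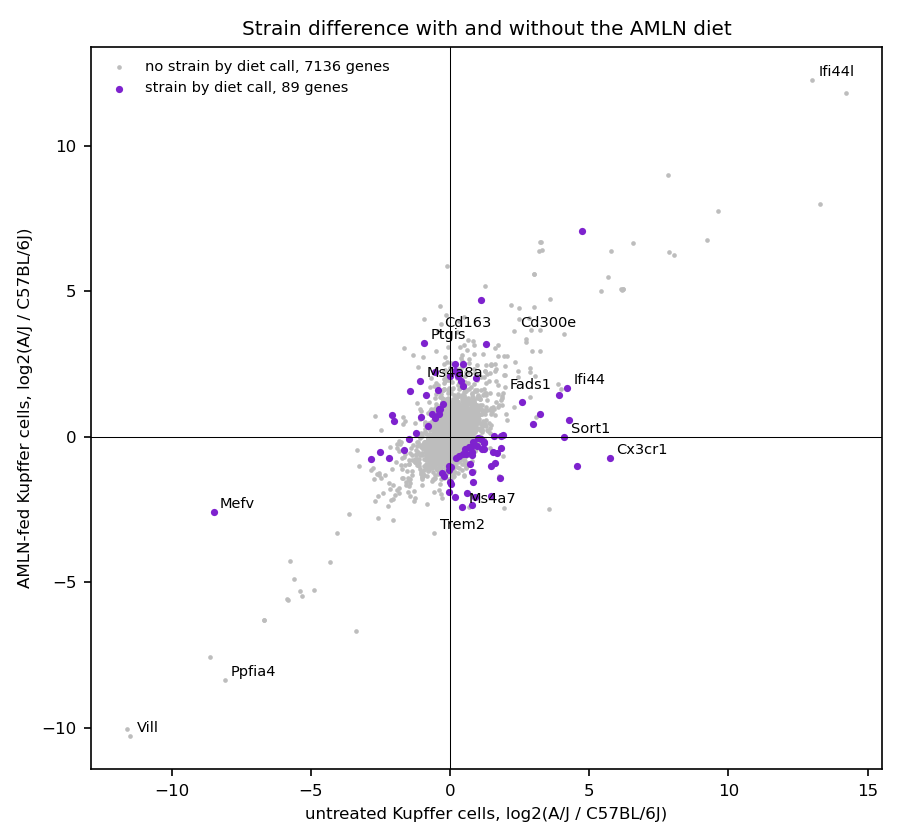
Log2 ratio of A/J over C57BL/6J on the AMLN diet (vertical, 4 libraries each) against the same ratio in untreated Kupffer cells (horizontal, 2 libraries each) for 7225 genes tested in both; the 89 genes with a strain by diet call are purple. Cx3cr1 and Sort1 lie near the horizontal axis at large untreated ratios, Mefv lies below that axis, and Vill, Ppfia4 and Ifi44l lie far out on both axes.

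Named by the size of the term, positive changes were led by Ldlrad3, a receptor-like protein, which had 1.97, 1.38, 3.5 and 1.88 TPM in A/J, against 6.6, 10.8, 10.8 and 7.72 TPM in C57BL/6J on the diet. Untreated cells had 0 and 0 TPM in A/J, against 5.5 and 8.15 TPM in C57BL/6J (strain by diet term 9.08 ± 1.11, SE, edgeR adjusted p = 0.00651). With A/J close to unread untreated, the size of that term depends on the prior count of the fit and is no bound. Mefv was near unread in untreated A/J cells, at 0.0360 and 0.124 TPM in A/J, against 23.8 and 35.1 TPM in C57BL/6J (term 5.89 ± 0.63, SE, edgeR adjusted p = 0.00307). Ptgis, prostacyclin synthase, was at 16, 25.5, 14.3 and 11.8 TPM in A/J, against 1.57, 1.57, 1.99 and 2.11 TPM in C57BL/6J on the diet. Untreated cells had 60.2 and 33.6 TPM in A/J, against 79.2 and 100.5 TPM in C57BL/6J, so its order between the strains differed with the diet (term 4.09 ± 0.53, SE, edgeR adjusted p = 0.00651). Ms4a8a, a membrane protein, had 61.6, 226, 143 and 113 TPM in A/J, against 29.3, 47, 34.6 and 31.3 TPM in C57BL/6J on the diet. Untreated cells had 81 and 76.2 TPM in A/J, against 138 and 192 TPM in C57BL/6J (strain by diet term 2.94 ± 0.58, SE, edgeR adjusted p = 0.0366), a reversed order that was called in both settings and whose term held in 3 of 12 fits. Rtn1, a reticulon, was under 8 TPM on the diet, with 1.8, 1.44, 2.1 and 3.52 TPM in A/J, against 3.6, 5.94, 4.94 and 6.4 TPM in C57BL/6J. Untreated cells had 0.484 and 0.334 TPM in A/J, against 12.8 and 14.6 TPM in C57BL/6J (strain by diet term 3.70 ± 0.51, SE, edgeR adjusted p = 0.00651).

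Gene models and multigene families aside, the 6 largest negative terms belonged to genes with a mean under 8 TPM in untreated C57BL/6J cells. Cx3cr1, the fractalkine receptor of monocytes and their descendants, had 76.1 and 110.5 TPM in untreated A/J, against 2.36 and 1.03 TPM in untreated C57BL/6J. On the diet it had 64.4, 9.02, 68.3 and 48.5 TPM in A/J, against 104, 49.9, 53.9 and 99.3 TPM in C57BL/6J (term -6.53 ± 1.01, SE, edgeR adjusted p = 0.0125, called in 9 of 12 fits). Lgals1, galectin-1, had 19 and 28.7 TPM in untreated A/J, against 1.69 and 0.194 TPM in untreated C57BL/6J. On the diet it had 84.9, 41.6, 15.3 and 44.5 TPM in A/J, against 136, 57.9, 84.4 and 99.9 TPM in C57BL/6J (term -5.61 ± 1.09, SE, edgeR adjusted p = 0.0345, called in 4 of 12 fits). Sort1, the sorting receptor sortilin, had 28.6 and 28.8 TPM in untreated A/J, against 1.09 and 2.26 TPM in untreated C57BL/6J. Its levels on the diet were 10.8, 23.6, 15.6 and 21.2 TPM in A/J, against 29, 9.44, 13 and 18.6 TPM in C57BL/6J (term -4.15 ± 0.66, SE, edgeR adjusted p = 0.0134). The strains overlapped on the diet for these 3 genes. Mical2, an actin-oxidizing enzyme, and Nes had terms of -4.88 ± 0.60 (SE, edgeR adjusted p = 0.00638) for Mical2 and -4.67 ± 0.62 (SE, edgeR adjusted p = 0.00651) for Nes, with levels below 1 TPM in untreated C57BL/6J cells. Ccr3, the eotaxin receptor, was at 139 and 207 TPM in untreated A/J, against 6.15 and 2.46 TPM in untreated C57BL/6J. On the diet it was low in both strains, at 0.970, 0.854, 3.5 and 5.69 TPM in A/J, against 1.47, 1.43, 1.12 and 0.756 TPM in C57BL/6J (term -4.29 ± 0.92, SE, edgeR adjusted p = 0.0469). The ribosomal protein genes Rps25 and Rpl29 had terms of 3.52 ± 0.35 and 9.18 ± 1.24 (SE), and these are uncertain because of their copies.

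Strain differences in the other cell types shared no libraries with the comparison on the diet. In resting BMDMs 169 of the 385 higher and 182 of the 223 lower genes were tested, and 47 (27.8%) and 51 (28.0%) of these were called the same way, which is 25.5% and 18.5% of the calls made there. Over all genes tested in BMDMs 5.54% were called, 2.22% higher and 3.32% lower. LSECs gave 45 of 302 (14.9%) higher and 28 of 102 (27.5%) lower, 31% and 13.9% of the calls there, where 3.99% of genes were called, 1.67% higher and 2.33% lower. Stellate cells gave 65 of 341 (19.1%) and 35 of 131 (26.7%), 17.2% and 14.3% of the calls there, where 6.74% were called, 4.08% higher and 2.65% lower. Hepatocytes gave 19 of 132 (14.4%) and 11 of 64 (17.2%), 22.6% and 14.9% of the calls there, where 2.87% were called, 1.53% higher and 1.34% lower. In all 5 other comparisons, untreated Kupffer cells included, 8 genes were called higher (among them Atp5g2, Glo1, H2-K2, H2-T10, Rpl13, Rpl38 and Rps16) and 8 lower (among them Atp6v0c, Atp6v0c-ps2, Gm12191, Gm15772, Rpl26, Rpl35a and Rps18). Most of these belong to families with near-identical copies, so their levels are uncertain. In none of the 5 were 253 of the higher and 138 of the lower genes called, which includes genes that were not tested there. By chromosome, and apart from chromosome Y with 0 calls among 4 tested genes, the share of tested genes called ran from 3.17% on chromosome X to 10.3% on chromosome 17, which holds the MHC and where 36 of 435 tested genes were higher and 9 lower.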

How the data were processed

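Per the study's methods, the authors aligned reads of strand-keeping poly(A) libraries with STAR to a pseudogenome of each strain, shifted positions to mm10 with MMARGE and counted exon reads with HOMER; versions and the strand setting are not given in the sources used here. The deposited tables hold raw counts and TPM per gene and library, and the deposited BMDM table holds expected counts, with a smallest step of 0.5, that were rounded before testing. Of 23608 symbols, 22969 matched a RefSeq symbol, 551 a synonym and 88 none.

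Genes were tested where edgeR's expression filter passed and the mean TPM was above 8 in at least 1 group. TMM-normalized counts were fitted by edgeR 4.0.16 (quasi-likelihood, robust; R 4.3.3), with Benjamini-Hochberg adjustment over all tested genes; calls needed an adjusted p under 0.05 and a log2 fold change beyond 1. DESeq2 1.42.0, RLE normalization, other filters, a replicate block and leaving out each library were alternatives. The fits were tested on simulated data. Python 3.11.15 with matplotlib 3.10.9 made tables and figures.

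The question and lists were chosen with earlier results of these data known. Named genes were up to 4 called members per list by size of change, the 10 largest changes each way without overlap, up to 8 genes each way with a mean under 1 TPM in one strain and above 8 in the other, the 6 largest strain by diet terms each way, all study-named and leptin receptor genes, and the most abundant cell markers; gene models and multigene families were left out of the choices by size. Further list members, ribosomal protein genes and Nnt were named after their values were seen. Some genes are not reported here. Libraries of other stimuli, crosses and assays were not used here.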

Additional observations from a re-analysis of the deposited data

Results flagged for a closer look

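Single libraries stood apart from the other 3 of their group in 12 of 296 groups of 4 libraries (4.05%) among the named genes and list sums, by a test of the gap at the end of the range that chance alone passes in about 1 in 20 groups. Of these, 6 were A/J libraries, 4 of them A/J library 1, and 6 were C57BL/6J libraries. A/J library 1 was the lowest of its group for Timp3 (2.93 TPM) and Bmp2 (2.61 TPM), both described with the endothelial genes, and for the summed level of complement genes (13914 TPM), and the highest for that of lysosome genes (24690 TPM). A/J library 2 was the highest for Atp5g2 (38.7 TPM), and A/J library 4 for Pf4, platelet factor 4 (36.8 TPM). C57BL/6J library 2 was the highest for Alb, albumin (365 TPM), C4b (99.5 TPM) and Atf5 (27.3 TPM). C57BL/6J library 3 was the lowest for Ctsd, cathepsin D (5525 TPM, against 6391 to 6526 TPM in the others), and the highest for Igsf9 (11.8 TPM) and for the summed level of interferon-stimulated genes (3648 TPM).

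For 21 named genes the strain difference on the diet differed from that in untreated Kupffer cells by edgeR's strain by diet term. Among macrophage and lysosome genes the terms, on the log2 scale, were -2.92 for Ms4a7, -1.0 for Gusb, -1.91 for Atp6v0a1 and -5.61 for Lgals1. Positive terms were 2.94 for C4b, 1.84 for Dnase1l3, 5.89 for Mefv, 2.29 for Atp6v0e2, 9.08 for Ldlrad3, 4.09 for Ptgis, 3.70 for Rtn1 and 2.94 for Ms4a8a. The interferon-stimulated genes Ifi44 and Xaf1 had terms of -2.60 and -2.58. Receptor and cytoskeletal genes had terms of -6.53 for Cx3cr1, -4.29 for Ccr3, -4.15 for Sort1, -4.88 for Mical2 and -4.67 for Nes. The ribosomal protein genes Rpl29 and Rps25, which have near-identical copies, had terms of 9.18 and 3.52. The untreated side of every term rests on 2 libraries of each strain, which in C57BL/6J may come from mice of another source than those on the diet.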

How the results depend on the processing

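No called value of a named gene changed sign under the alternatives run. Of 107 genes called on the diet, given by the naming rule or named beyond it, 107 were called again by DESeq2 and by edgeR with RLE normalization. In fits without 1 library 87 to 105 were called again. Counts of calls moved more. On the diet 608 genes were called, 722 by DESeq2, 603 with RLE normalization, 1356 with no TPM minimum, 272 with a fold limit of log2 2 and 481 to 836 without 1 library. Some alternatives were chosen after the data were seen. Without genes whose level in other liver cells exceeded 2 times that of untreated Kupffer cells, 335 were called. With A/J libraries 3 and 4 only 1185 were called, and with A/J libraries 1 and 2 only 595. Lipid-associated macrophage genes called lower numbered 17 with libraries 3 and 4 and 4 with libraries 1 and 2, against 9 with all. The strain by diet count was the least stable, at 107 with edgeR, 343 with DESeq2 and 12 to 494 without 1 library. With no TPM minimum the calls numbered 755 in untreated Kupffer cells (main value 360), 1038 by diet in A/J (323), 1946 by diet in C57BL/6J (1001), 1314 in BMDMs (460), 757 in LSECs (347), 1221 in stellate cells (622) and 489 in hepatocytes (158), and same-way calls shared with the diet comparison numbered 327 (148), 290 (98), 171 (73), 228 (100) and 101 (30) in untreated Kupffer cells, BMDMs, LSECs, stellate cells and hepatocytes. DESeq2 called 496 genes by diet in A/J and 247 in hepatocytes. Without 1 library the counts ran over 340 to 397 in untreated Kupffer cells, 31 to 533 by diet in A/J, 447 to 897 by diet in C57BL/6J, 415 to 581 in BMDMs, 329 to 372 in LSECs, 518 to 695 in stellate cells and 69 to 245 in hepatocytes, and the shared calls over 137 to 161, 93 to 102, 67 to 79, 82 to 104 and 23 to 31 in the order above. Same-numbered A/J and C57BL/6J libraries did not all deviate together (r = 0.26, 0.49, 0.18 and -0.07 for numbers 1 to 4). The value for number 2 was the highest of all pairings of the libraries. These values cannot show whether some libraries were handled together, and the main fits used the numbers as names only. A replicate block gave 594 calls on the diet, 49 strain by diet and 349 in hepatocytes. Genes near 8 TPM, sets of 2 libraries and the lone library left in some fits, which is assumed to vary like the other groups, limit what these counts can show.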
